A study of Mus musculus with 6 samples.

Results

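Transcripts of 7 tubulin genes and of both cytoplasmic actin genes were followed in kidneys of mice with lipopolysaccharide (LPS) injury. The 9 genes, Tuba1a, Tuba1b, Tuba1c, Tubb2a, Tubb2b, Tubb5, Tubb6, Actb and Actg1, were chosen by symbol from the 17680 gene symbols listed in the count tables. All 9 were found in every library and all passed the count filter. The samples were kidneys of WT C57BL/6 mice aged 6 to 8 weeks, taken 24 h (labelled day 1) after an intraperitoneal injection of LPS, a bacterial cell wall component, or of PBS, the saline vehicle. There were 3 LPS and 3 Control (PBS) libraries of bulk RNA, 1 per mouse by the design text. LPS injection is a model of the injury that sepsis causes, and it acts on the whole animal.

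Microtubules are polymers of alpha-tubulin and beta-tubulin, which fold with the help of chaperones and join as a pair. Each subunit is encoded by several genes, called isotypes, whose proteins differ mainly in their acidic tails. Cells adjust tubulin messages to the amount of free tubulin: the opening residues of a nascent tubulin are recognised by TTC5, and the message is then degraded. Actin filaments are polymers of beta-actin and gamma-actin, encoded by Actb and Actg1 and made by nearly all cells. Both actin genes are textbook targets of the factor SRF, and Actb is a common reference gene in expression assays. In tubule epithelium microtubules carry vesicle traffic, and actin supports the brush border and cell contacts.

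All 9 transcripts were higher in LPS kidneys, the tubulins by 1.96-fold to 5.43-fold and the actins by 1.37-fold (Actb) and 1.41-fold (Actg1). Tubb2a and Tubb6 had the highest folds, at 5.43 and 5.30, and Tuba1a and Tuba1b the lowest among the tubulins, at 1.96 and 2.09. The calls are from edgeR's quasi-likelihood test over 14219 genes with Benjamini-Hochberg adjustment and a threshold of 0.05. Over all of these genes 25.7% were higher and 24.8% lower in LPS kidneys, 50.5% in all. At least 2-fold higher were 6 of the 9 genes, against 8.24% of all genes tested. Every LPS library lay above every Control library for 8 of the 9, against 30.5% of all genes tested, and for none did every LPS library lie below (29.8% of all). The median log2 fold change was 1.34 over the tubulins and 0.47 over the actins, beside 0.01 over all genes. In bulk RNA a change in the number of cells of a type and a change in RNA per cell cannot be told apart.

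**Figure D1:**
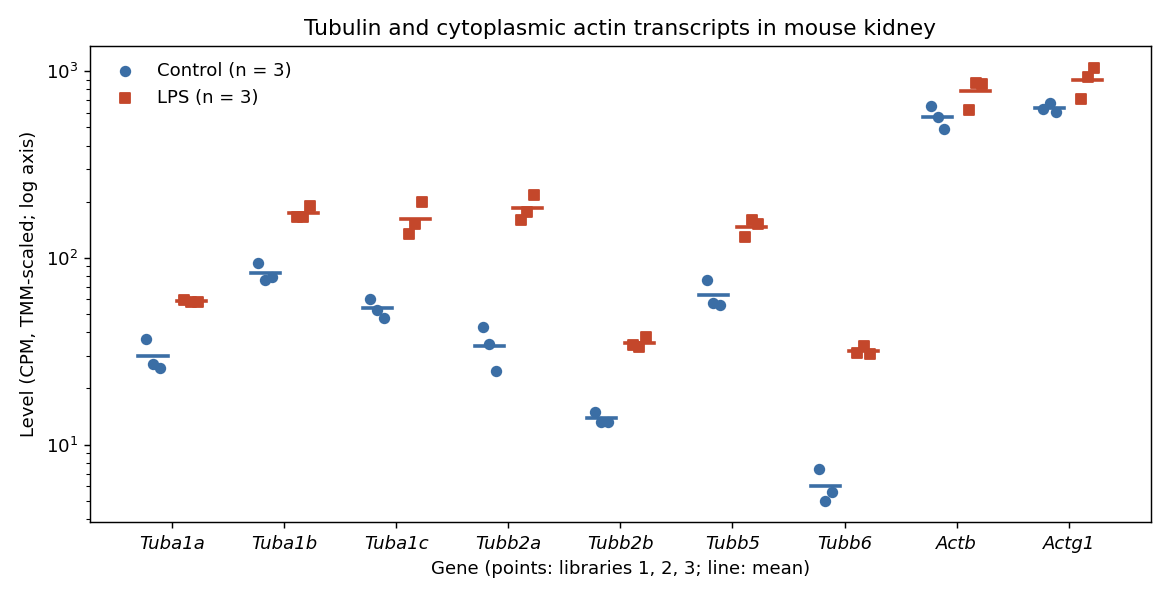
Level of each gene in each library, in CPM (counts relative to the library total, scaled with TMM factors), on a log axis; points are libraries 1, 2 and 3 of a group from left to right and lines are group means. All tubulin points of LPS kidneys lie above those of Control kidneys, while Actb in LPS replicate 1 (618 CPM) lies below Control replicate 1 (654 CPM).

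The libraries held between 29097558 and 33454344 counts, and counts of these 9 genes lay between 154 and 32311 per library. The 9 genes together took 0.134% to 0.166% of Control counts and 0.206% to 0.275% of LPS counts. Some libraries stood apart. LPS replicate 2 held 3.66% of its counts in 9 seminal vesicle transcripts, against at most 0.00457% elsewhere. Control replicate 1 had the highest summed level among Control libraries of the marker lists of leukocytes (337 against 199 and 215 CPM without TMM factors), endothelium (672 against 495 and 519), fibroblasts (562 against 315 and 352) and smooth muscle and pericytes (349 against 286 and 291). It also had the highest level of all 7 tubulins among the Control libraries. The part of these differences in the results was not tested. Leaving out Control replicate 1 gave 9 members higher, 7 by at least 2-fold. Leaving out LPS replicate 2 gave 8 higher, with Actb the exception, and 6 by at least 2-fold.

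Among the alpha-tubulins, all 3 genes rose, Tuba1c by the largest fold (3.01). Tuba1b, a broadly made isotype, measured 94.1, 76.3 and 79.1 CPM in Control replicates 1, 2 and 3 and 165.7, 165.2 and 189.9 CPM in the LPS replicates. The groups did not overlap, and the log2 fold change was 1.06 ± 0.11 (SE; edgeR adjusted p = 4.76e-05). Tuba1c stood at 60.3, 52.9 and 47.9 CPM in Control and at 134, 153 and 198 CPM in LPS libraries, with LPS replicate 3 highest. Its log2 fold change was 1.59 ± 0.15 (adjusted p = 3.46e-05), larger than that of 95.2% of all genes tested. Tuba1a, the isotype known best from developing neurons, stood at 36.9, 27.1 and 25.8 CPM in Control and at 59.5, 57.9 and 58.4 CPM in LPS libraries. The LPS libraries lay close together, and the log2 fold change was 0.97 ± 0.13 (adjusted p = 0.000250).

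These 3 genes lie on chromosome 15 and have nearly the same coding sequence, which bears on how their reads were assigned. In GENCODE M21 transcripts (mouse build GRCm38) the coding identity was 98.3% between Tuba1a and Tuba1b, 97.9% between Tuba1b and Tuba1c and 97.1% between Tuba1a and Tuba1c. Of windows of 100 bases, 65.1% of Tuba1a, 69.5% of Tuba1b and 53.4% of Tuba1c occurred exactly in a transcript of another gene, most often in each other. Reads from such windows can be split or dropped, so the single alpha-tubulin values are uncertain. For windows of 50 and 150 bases the shares were 72.9% and 54.7% (Tuba1a), 73.8% and 57.9% (Tuba1b), and 61.0% and 46.7% (Tuba1c).

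Among the beta-tubulins, Tubb2a rose by the largest fold of the members, and Tubb6 by a similar fold from a low level. Tubb2a measured 42.5, 34.7 and 24.7 CPM in Control replicates 1, 2 and 3 and 160.1, 176.5 and 216.3 CPM in LPS libraries. The lowest LPS library was far above the highest Control library, and the log2 fold change was 2.44 ± 0.20 (adjusted p = 1.27e-05), above that of 97.4% of all genes. Tubb6, an isotype known to be raised in regenerating muscle, stood at 7.42, 5.01 and 5.56 CPM in Control and at 31.0, 33.9 and 30.6 CPM in LPS libraries. Its log2 fold change was 2.41 ± 0.15 (adjusted p = 2.75e-06). Tubb2b, the near copy of Tubb2a, stood at 14.9, 13.3 and 13.3 CPM in Control and at 34.1, 33.3 and 37.7 CPM in LPS libraries, a log2 fold change of 1.34 ± 0.09. Tubb5, the main beta-tubulin of many dividing cells, stood at 76.5, 57.5 and 55.7 CPM in Control and at 129, 159 and 152 CPM in LPS libraries, a log2 fold change of 1.21 ± 0.14. The adjusted p-values of these 2 genes were 6.19e-06 and 9.89e-05 (edgeR). Neither gene had an LPS library within the Control range.

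Tubb2a and Tubb2b, both on chromosome 13, were 96.5% identical over their coding sequences. Of 100-base windows, 36.9% of Tubb2a and 27.7% of Tubb2b occurred in another gene's transcript, most often in each other's, so their split is uncertain as well. Tubb5 and Tubb6 had 0% of 100-base windows in another gene, and their values do not share this limit at exact matches. Coding identity with the other beta members was 83.9% to 84.6% for Tubb5 against the Tubb2 genes, 83.2% to 83.6% for Tubb6 against them and 80.2% between Tubb5 and Tubb6.

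The opening codons, which encode the residues that TTC5 reads, are shown because they are the part by which tubulin messages are known to be controlled together. Each line gives bases 1 to 30 of the coding sequence in the spliced GENCODE M21 transcript, 5′ to 3′, with bases 1 to 12 in capitals.
Tuba1a: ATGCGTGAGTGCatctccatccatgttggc
Tuba1b: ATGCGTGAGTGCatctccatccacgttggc
Tuba1c: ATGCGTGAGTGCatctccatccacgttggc
Tubb2a: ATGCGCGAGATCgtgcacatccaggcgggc
Tubb2b: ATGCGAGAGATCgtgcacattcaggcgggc
Tubb5: ATGAGGGAAATCgtgcacatccaggccgga
The 3 alpha genes were identical over all 12 of these bases. The beta genes Tubb2a and Tubb2b shared 11 of 12, and each shared 9 of 12 with Tubb5. These are counts of bases, and the 12 bases shown for Tubb2a, Tubb2b and Tubb5 encode the same residues. Tubb6, whose sequence is not shown, shared 9 of 12 with Tubb2a and with Tubb2b and 10 of 12 with Tubb5. The transcript of Ttc5 itself averaged 25.6 ± 2.17 CPM in Control kidneys and 19.6 ± 0.65 CPM after LPS (SD, n = 3), a log2 fold change of -0.39 ± 0.09 with an edgeR adjusted p of 0.00744. Ttc5 was singled out after its values were seen.

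On the per-length scale (FPKM, fragment counts divided by gene length and library total), the order of the tubulin genes differed between the groups. In Control kidneys the order was Tuba1b at 53.4 ± 7.33 FPKM, Tuba1c at 27.3 ± 3.70, Tubb5 at 24.1 ± 4.94, Tubb2a at 21.3 ± 5.97, Tuba1a at 18.9 ± 4.28, Tubb2b at 7.21 ± 0.64 and Tubb6 at 3.46 ± 0.81 FPKM (SD, n = 3). The libraries of Tuba1c, Tubb5, Tubb2a and Tuba1a overlapped between neighbours in this order, while Tuba1b lay above them, and Tubb2b and Tubb6 below, in each Control library. In LPS kidneys Tubb2a stood at 114 ± 16.6 and Tuba1b at 111 ± 8.01 FPKM, with overlapping libraries. They were followed by Tuba1c at 81.4 ± 15.7, Tubb5 at 55.2 ± 5.31 and Tuba1a at 36.7 ± 0.92 FPKM, which did not overlap their neighbours. Tubb6 at 18.2 ± 1.04 and Tubb2b at 18.2 ± 1.08 FPKM overlapped at the bottom. Split or dropped reads of shared windows can change the FPKM of the Tuba1 and Tubb2 genes, unlike those of Tubb5 and Tubb6. This order, and the shares and ratios that follow, are therefore uncertain.

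Tubb2a held a larger share of the beta-tubulin members in LPS than in Control kidneys, and Tubb5 a smaller one, though the test of these shares could not reach the threshold. Tubb2a made up 39.2%, 40.6% and 33.0% of the summed FPKM of the 4 beta members in Control replicates 1, 2 and 3 and 54.2%, 53.1% and 58.8% in LPS replicates. Tubb5 made up 42.9%, 40.9% and 45.3% in Control and 26.6%, 29.1% and 25.02% in LPS libraries. The share of Tubb6 was 6.19 ± 0.73% in Control and 8.90 ± 1.09% in LPS kidneys, and that of Tubb2b 13.1 ± 1.68% and 8.86 ± 0.67%. Among the 3 alpha members the share of Tuba1c was 27.4 ± 1.27% in Control and 35.4 ± 3.35% in LPS kidneys, that of Tuba1b 53.7 ± 1.60% and 48.4 ± 1.60%, and that of Tuba1a 18.9 ± 1.34% and 16.2 ± 1.79%. The groups did not overlap for any of these 7 shares. The exact two-sided permutation p was 0.1 for each, the smallest that 3 against 3 libraries allow, and 0.113 after Benjamini-Hochberg adjustment over 9 shares and ratios, so none passed the threshold. The direction depends on the denominator: with all detected alpha or beta genes in the sums, the differences for Tuba1b, Tubb2b and Tubb5 turned to 1.64, 0.527 and 0.520 percentage points higher in LPS kidneys. The difference for Tuba1a shrank from -2.72 to -0.148 percentage points, while those for Tuba1c (9.67), Tubb2a (16.9) and Tubb6 (2.70) stayed positive.

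The ratio of the summed alpha members to the summed beta members was lower in each LPS library than in any Control library, by a size that depends on which genes are summed. The FPKM ratio was 1.69, 1.74 and 1.96 in Control replicates 1, 2 and 3 and 1.15, 1.06 and 1.13 in LPS replicates. The groups did not overlap, and the exact permutation p was again 0.1 (0.113 adjusted). The log2 ratio differed by -0.69 (LPS minus Control) over the members, by -0.53 on counts and by only -0.17 with all detected alpha and beta genes in the sums (adjusted permutation p = 0.225). Summed alpha members stood at 99.6 ± 15.05 FPKM in Control and 229 ± 22.8 FPKM in LPS kidneys, and summed beta members at 56.0 ± 11.9 and 206 ± 20.1 FPKM.

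The remaining tubulin genes included abundant isotypes with smaller folds. Tubb4b, a beta isotype of cilia and of most tissues, was the highest tubulin of all per length, at 121 ± 15.98 FPKM in Control and 190 ± 29.0 FPKM in LPS kidneys, and rose by a log2 fold change of 0.66 ± 0.13 (edgeR adjusted p = 0.00243). Tuba4a stood at 38.7 ± 4.51 and 46.2 ± 5.90 FPKM and did not pass (log2 fold change 0.27 ± 0.12, adjusted p = 0.0892). Without LPS replicate 1 its adjusted p was 0.0487, and over all alternatives it lay between 0.0487 and 0.268. With all 15 detected alpha and beta genes in the sum, the 7 members made up 50.4%, 47.9% and 48.5% of tubulin FPKM in Control replicates 1, 2 and 3 and 65.7%, 64.5% and 63.5% in LPS replicates. The groups did not overlap in this share, which was given no test.

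**Figure D2:**
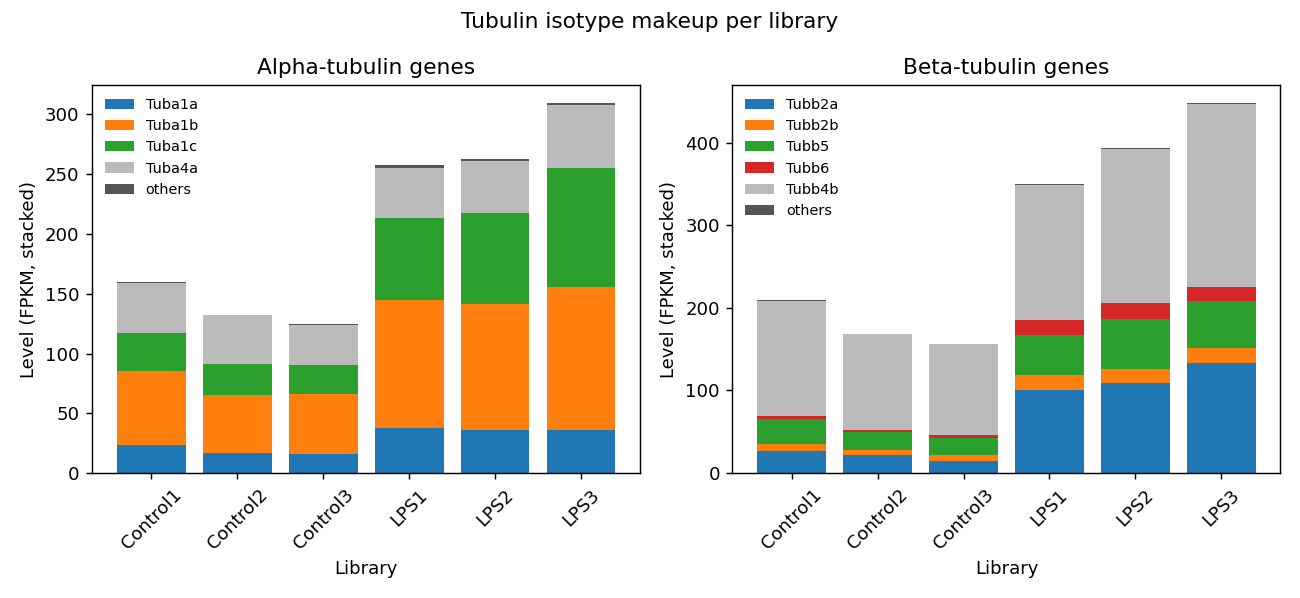
Stacked FPKM of alpha-tubulin genes (left) and beta-tubulin genes (right) in each library; colours are the 7 members, light grey is Tuba4a or Tubb4b and dark grey the sum of the genes with lower values. The Tubb2a layer holds 15.2 to 27.2 FPKM in Control and 101 to 133 FPKM in LPS libraries, and the Tubb4b layer 110 to 140 and 163 to 221 FPKM.

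Of 9 further tubulin genes tested 3 rose, beside 25.7% of all genes tested, and the other 6 did not pass. The median log2 fold change of the 9 was 0.40. Beside Tubb4b the 3 that rose were Tubg1, the gamma-tubulin that nucleates microtubules, at 20.6 ± 0.70 and 29.3 ± 0.24 CPM (log2 fold change 0.51 ± 0.08, adjusted p = 0.000641), and Tuba8 at 1.10 ± 0.57 and 2.38 ± 0.35 CPM (1.11 ± 0.38, adjusted p = 0.0349). The call for Tuba8 did not hold on leaving out LPS replicate 1, 2 or 3 (adjusted p = 0.0903, 0.0615 and 0.0534) or Control replicate 1 or 2 (0.0990 and 0.117), in a range from 0.00801 to 0.117 over the alternatives. Tubb3, the neuronal isotype, had 11, 69 and 14 counts in LPS and 10, 7 and 8 counts in Control libraries and did not pass (adjusted p = 0.0643). Its fitted log2 fold change of 1.79 ± 0.72 became 0.52 without LPS replicate 2 (adjusted p = 0.464). It passed without LPS replicate 1 (0.0230), without LPS replicate 3 (0.0456) and in DESeq2 (0.0432). Tubg2 (0.33 ± 0.40), Tubd1 (0.40 ± 0.26), Tubb4a (-0.60 ± 0.41) and Tube1 (-0.86 ± 0.49) did not pass either.

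Both cytoplasmic actins were higher per length than any tubulin gene and had smaller folds than the 7 tubulin members. Actg1 measured 631, 674 and 606 CPM in Control replicates 1, 2 and 3 and 710, 933 and 1047 CPM in the LPS replicates. The groups did not overlap, though LPS replicate 1 lay only a little above the Control libraries, and the log2 fold change was 0.49 ± 0.13 (edgeR adjusted p = 0.0127). Actb stood at 654, 569 and 490 CPM in Control and at 618, 866 and 858 CPM in LPS libraries. Here LPS replicate 1 lay within the Control range, and the log2 fold change was 0.45 ± 0.15 (adjusted p = 0.0311). That call depended on single libraries. The adjusted p became 0.0895 when LPS replicate 2 was left out and 0.0953 when LPS replicate 3 was. It became 0.0863 and 0.110 on leaving out Control replicate 2 or 3, and 0.0531 with the replicate number as a block.

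Per length the actins were about equal. Actg1 stood at 327 ± 16.9 FPKM in Control and 457 ± 82.3 FPKM in LPS kidneys, and Actb at 299 ± 48.5 and 404 ± 69.3 FPKM, with overlapping libraries in each group. The ratio of Actb to Actg1 in FPKM was 1.05, 0.859 and 0.822 in Control replicates 1, 2 and 3 and 0.885, 0.944 and 0.834 in LPS replicates. The ranges overlapped, and the log2 ratio differed by -0.03 between the groups (exact two-sided permutation p = 0.9, also 0.9 adjusted over the 9 shares and ratios). The 7 tubulins summed to 0.273, 0.227 and 0.243 of the actin FPKM in Control libraries and to 0.577, 0.459 and 0.496 in LPS libraries. This ratio was computed after the values were seen and was not tested.

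The start of the actin coding sequence is shown because it holds the codons in which the otherwise nearly identical proteins differ most. Each line gives bases 1 to 30, with bases 1 to 12 in capitals.
Actb: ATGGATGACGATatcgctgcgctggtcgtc
Actg1: ATGGAAGAAGAAatcgccgcactcgtcatt
The genes shared 9 of the first 12 bases and 22 of the first 30, and 88.7% of the whole coding sequence. Of 100-base windows of the Actg1 transcript, 51.1% occurred exactly in a transcript of another gene, most often in Gm12715, and so did 1.10% of those of Actb. For windows of 50 and 150 bases the shares were 56.7% and 43.5% for Actg1 and 14.2% and 0% for Actb. Reads of Actg1 can therefore be split with such copies, and its level is uncertain. Actb shares this limit to a lesser extent, mainly if reads were short.

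Promoter sequences bear on whether the members share elements. RefSeq promoters on GRCm38.p6 (250 bases before to 50 after the start) matched 6 of the 9 genes, Tuba1a, Tuba1b, Tuba1c, Tubb2a, Tubb5 and Actg1. Both strands were searched for the CArG box (the SRF site), for CCAAT, for the GC box GGGCGG and for the TATA box TATAAA. The upstream 250 bases of Tubb2a and Actg1 are shown as the tubulin with the largest fold and the actin with a sequence, on the minus strand of chr13:34078009-34078258 and chr11:120348496-120348745, with CArG, CCAAT and TATA matches in capitals.
Tubb2a: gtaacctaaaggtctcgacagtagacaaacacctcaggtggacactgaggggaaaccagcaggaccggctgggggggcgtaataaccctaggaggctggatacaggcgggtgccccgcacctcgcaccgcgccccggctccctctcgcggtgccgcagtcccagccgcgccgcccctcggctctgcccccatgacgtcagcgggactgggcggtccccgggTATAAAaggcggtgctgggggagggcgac
Actg1: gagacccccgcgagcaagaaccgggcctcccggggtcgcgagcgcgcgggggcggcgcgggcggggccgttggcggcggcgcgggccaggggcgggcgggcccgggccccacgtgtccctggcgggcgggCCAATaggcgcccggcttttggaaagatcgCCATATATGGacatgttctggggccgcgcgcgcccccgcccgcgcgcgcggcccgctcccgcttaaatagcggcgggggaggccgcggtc
Of the 6 promoters only that of Actg1 held a CArG box, 90 bases before the start, against 1.63% of 32851 promoters of that length. CCAAT was found in Tuba1a, Tuba1c, Tubb5 and Actg1 (37.4% of all promoters) and the GC box in all but Tuba1c (35.7%), with 6 matches in Actg1, some of them overlapping each other. Only Tubb2a held TATAAA (13.6%), 29 bases before its start. No CArG, CCAAT or TATA match overlapped another match. These matches are letters in a window, not measured binding.

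Genes of the SRF pathway moved in both directions, as did the tested genes as a whole (25.7% higher and 24.8% lower). Here and in the lists that follow, a value given with a gene without a unit is its log2 fold change, with its SE, from edgeR. Of 19 tested regulators and targets 9 rose and 4 fell, with a median log2 fold change of 0.15. Srf itself stood at 43.4 and 43.2 CPM in Control and LPS kidneys (-0.01 ± 0.10, not passed), while the co-activator gene Mrtfb rose (0.69 ± 0.09). Both were singled out after their values were seen. The largest increases were of the immediate early genes Fos (3.73 ± 0.26), Junb (2.80 ± 0.09) and Egr1 (2.19 ± 0.13). The contractile target Myl9 fell (-1.61 ± 0.17).

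None of the 3 muscle actins tested passed, in edgeR or in any of the 16 alternatives, and none had an unadjusted p under 0.05. Acta2, the actin of smooth muscle and myofibroblasts, had a mean of 64.7 ± 12.1 CPM in Control kidneys, against 53.2 ± 16.3 CPM after LPS (log2 fold change -0.28 ± 0.22, adjusted p = 0.307). Acta1 (0.07 ± 0.23) and Actg2 (0.92 ± 0.84) did not pass either, and of Actc1 1 count was found in the 6 libraries. Of 9 smooth muscle and pericyte markers 1 rose and 1 fell, with a median of -0.12. Of 8 fibroblast markers 1 rose and 3 fell, with a median of -0.49. Among all genes tested 25.7% rose and 24.8% fell.

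**Figure D3:**
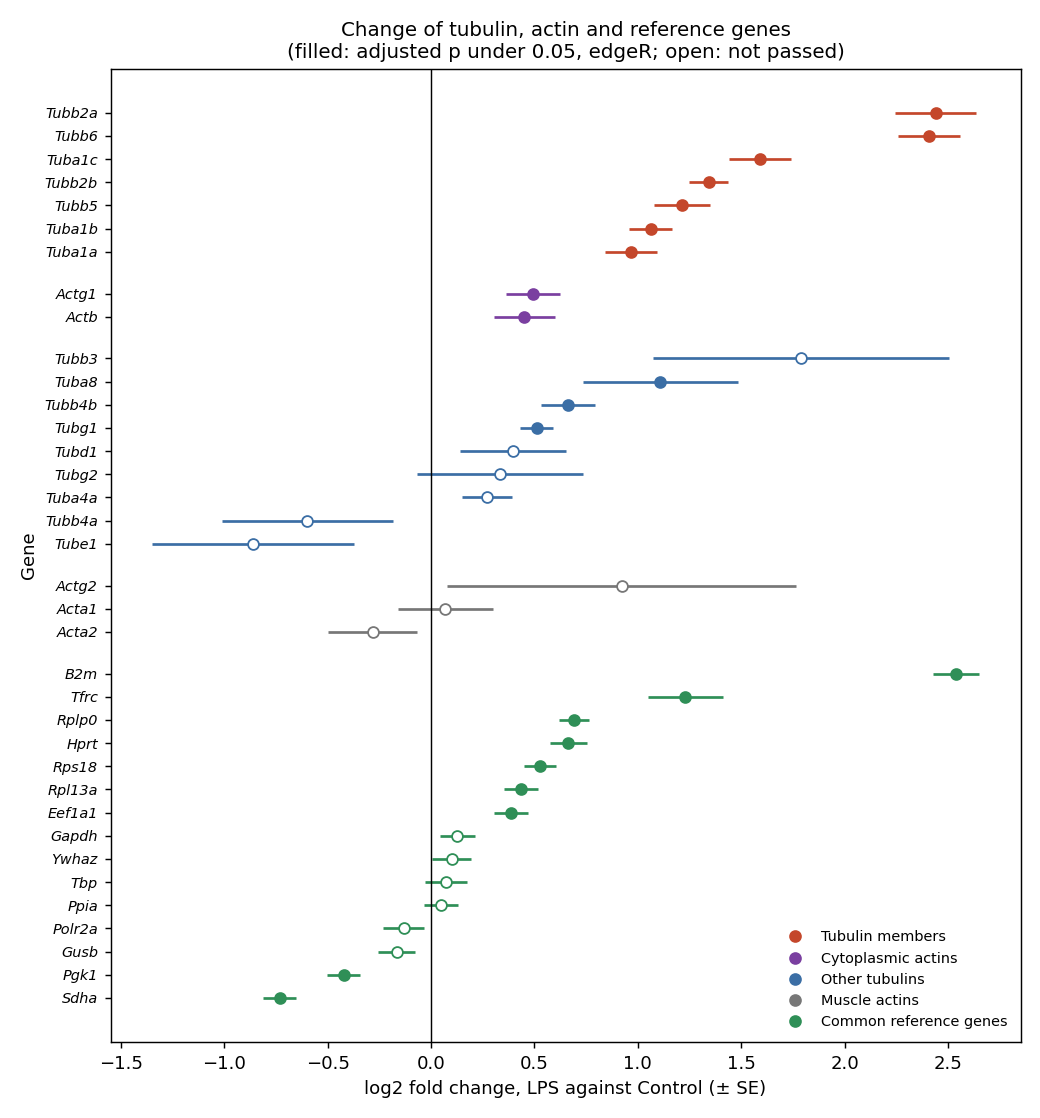
Log2 fold change of LPS against Control with its standard error (SE) for the tubulin members, the cytoplasmic actins, the other tubulins, the muscle actins and genes often used as references, from edgeR; filled points passed an adjusted p of 0.05. The 7 tubulin members lie between 0.97 and 2.44, Actb and Actg1 at 0.45 and 0.49, and the reference genes between -0.73 (Sdha) and 2.54 (B2m).

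As Actb is often used as a reference gene, 15 such genes were set beside it. Of these 7 rose and 2 fell, beside 25.7% and 24.8% of all genes tested, with a median log2 fold change of 0.13. B2m, part of class I antigen presentation, rose by 2.54 ± 0.11 and the transferrin receptor gene Tfrc by 1.23 ± 0.18. Rplp0 (0.69), Hprt (0.66), Rps18 (0.53), Rpl13a (0.43) and Eef1a1 (0.39) rose by sizes near those of the actins, and Sdha (-0.73) and Pgk1 (-0.42) fell. Gapdh (0.13 ± 0.09), Ywhaz (0.10 ± 0.09), Tbp (0.07 ± 0.10), Ppia (0.05 ± 0.08), Polr2a (-0.13 ± 0.10) and Gusb (-0.17 ± 0.09) did not pass, which does not show that they were equal.

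Some of the genes of tubulin folding and message decay rose, and 2 fell, Tbcel and the message decay gene Ttc5. For comparison, 25.7% of all genes tested rose and 24.8% fell, and 2 of 8 is near the latter share. Of 15 genes of the CCT chaperonin, which folds tubulin and actin, and its partner prefoldin 6 rose and the other 9 did not pass, with a median of 0.04. Cct3 rose from 128 ± 2.92 to 211 ± 11.9 CPM (0.72 ± 0.08), Cct5 by 0.45 ± 0.08 and Cct7 by 0.40 ± 0.07. Pfdn5 stood at -0.22 ± 0.10 and did not pass. Of 8 folding cofactors and message decay genes 4 rose and 2 fell, with a median of 0.29. Tbcb, an alpha-tubulin cofactor, rose from 45.5 ± 0.62 to 83.6 ± 8.80 CPM (0.88 ± 0.09) and Tbce by 0.53 ± 0.10, while Tbcel fell (-0.61 ± 0.09).

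Enzymes and binding proteins of microtubules moved in both directions, as did the tested genes as a whole (25.7% higher and 24.8% lower). Of 17 tubulin modifying enzymes 3 rose and 5 fell, with a median of -0.08. Hdac6, the tubulin deacetylase, rose from 70.4 ± 2.25 to 144 ± 13.8 CPM (1.03 ± 0.09), and Atat1, the acetyltransferase that opposes it, fell from 11.4 ± 0.29 to 7.17 ± 1.04 CPM (-0.67 ± 0.15). Ttll7, a polyglutamylase, rose by 1.84 ± 0.24 and Ttll12 by 0.99 ± 0.10. Of 31 genes of microtubule binding and dynamics 6 rose and 9 fell, with a median of 0.03. The plus end protein gene Mapre3 rose by 0.92 ± 0.08 and Map4 by 0.67 ± 0.08, and Tppp, which promotes polymerization, fell from 5.14 ± 1.11 to 1.01 ± 0.33 CPM (-2.35 ± 0.31).

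Genes of actin assembly and turnover were more often higher than lower, while of all genes tested 25.7% were higher and 24.8% lower. Of 27 genes of the Arp2/3 complex and other nucleators 14 rose and 5 fell, with a median of 0.34. Arpc1b, an Arp2/3 subunit, rose from 54.4 ± 4.10 to 204 ± 24.1 CPM (1.91 ± 0.11), Cobl, a nucleator, by 1.13 ± 0.11 and Cttn, which encodes cortactin, by 0.94 ± 0.10, while Wasf3 fell (-1.79 ± 0.21). Of 18 genes of monomer binding and turnover 13 rose and 1 fell, with a median of 0.55. Cfl1, the severing factor cofilin, rose from 322 ± 17.4 to 559 ± 48.8 CPM, Tmsb10, a monomer binding thymosin, from 32.3 ± 8.30 to 84.6 ± 15.5 CPM and Cap1 by 0.65 ± 0.07, and Limk2 fell (-0.26 ± 0.08).

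Capping, crosslinking and adhesion genes were also more often higher than lower. Of 13 capping and severing genes 6 rose and 2 fell, with a median of 0.10. Capg rose from 29.0 ± 2.37 to 122 ± 5.52 CPM (2.08 ± 0.09) and Capzb by 0.62 ± 0.08, and Gsn, which encodes gelsolin, fell from 186 ± 25.4 to 88.8 ± 15.6 CPM (-1.07 ± 0.15). Of 32 genes of crosslinking, myosin and adhesion 16 rose and 7 fell, with a median of 0.23. Tpm4, a tropomyosin, rose by 1.53 ± 0.14 and Zyx, which encodes zyxin, by 0.95 ± 0.07, while Tln2, a talin gene, fell from 277 ± 25.7 to 53.3 ± 9.13 CPM (-2.38 ± 0.14) and Myh14 also fell (-1.14 ± 0.08). Over the 10 lists of related genes, from other tubulins to adhesion, 71 of 173 tested genes (41.0%) rose and 31 (17.9%) fell, beside 25.7% and 24.8% of all genes, and their median was 0.20. These lists were chosen with earlier results of these data known, and the difference in shares was not tested.

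**Figure D4:**
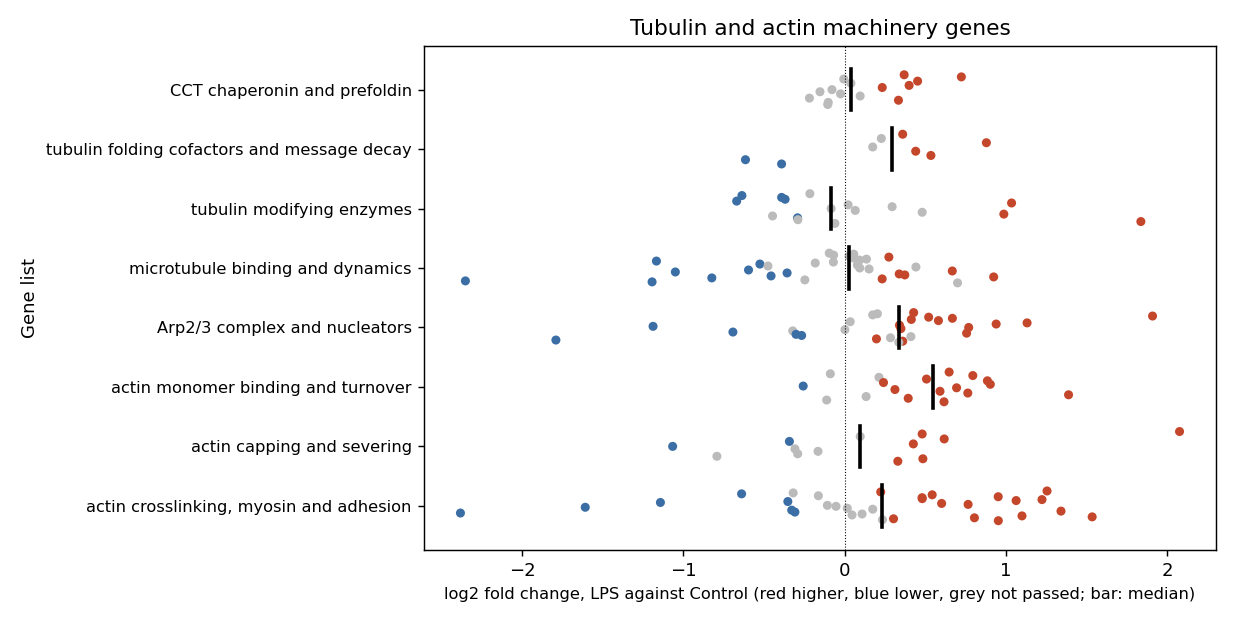
Log2 fold change of each tested gene in 8 lists of tubulin and actin partners; red points were higher and blue points lower in LPS kidneys at an adjusted p of 0.05 in edgeR, grey points did not pass, and black bars are list medians. Capg (2.08) and Arpc1b (1.91) lie farthest right and Tln2 (-2.38) and Tppp (-2.35) farthest left.

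Several cell type markers moved beside these genes, and their part in the tubulin and actin values was not tested. No listed marker was at 0 in all libraries. The counts below stand beside 25.7% higher and 24.8% lower among all genes tested. Of 15 leukocyte genes 8 rose and 1 fell (median 0.67), and their summed level was 348 to 412 CPM without TMM factors in LPS and 199 to 337 CPM in Control libraries. The calprotectin genes S100a8 and S100a9 rose by 5.04 ± 0.22 and 4.93 ± 0.20 and Cd68 by 2.88 ± 0.18, while Ptprc (-0.04 ± 0.29), made by all leukocytes, did not pass and Csf1r fell (-0.85 ± 0.14). Of 12 proliferation genes none passed in edgeR or DESeq2 and none had an unadjusted p under 0.05 (median -0.16), with summed levels of 12.8 to 16.2 CPM in LPS and 13.8 to 22.2 CPM in Control libraries. All 10 proximal tubule markers fell (median -2.21), from 17837 to 19633 CPM in sum to 4693 to 5630 CPM, and 6 of 8 loop and distal tubule markers fell (median -0.75). Of 9 endothelial markers 3 fell and the other 6 did not pass (median 0.07). Of 8 neuron and ciliated cell genes 3 fell and the other 5 did not pass (median -1.07), with summed levels of at most 16.2 CPM in any library. The 7 seminal vesicle genes tested were all called higher in edgeR and 0 in DESeq2, and their summed level was 36581 CPM in LPS replicate 2 against at most 45.7 CPM elsewhere.

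The genes whose log2 CPM followed the summed tubulin members most closely over the 6 libraries were Rps20, Slc16a6, Ddost, Rpsa and Clcf1, with Pearson r of at least 0.998. For the summed actins they were Nme6, Rpp38, Trir, Dstn and Nudt3, with r from 0.991 to 0.996. These values describe the same 6 libraries as above, which fall into 2 groups, and carry no test.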

How the data were processed

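Kidney RNA of 3 LPS and 3 Control mice was compared, grouped by sample title. The authors deposited raw counts and FPKM per gene symbol. Per the submitters' processing notes the tools were R 3.2.0, SAMtools, HTSeq, HISAT2 and DESeq2, with no roles. The sources used here do not state genome build, annotation, read length or strand setting, so overlapping and antisense genes cannot be told apart. All deposited FPKM values above 0 (97605) equal counts per library total and a whole-number gene length within a relative tolerance of 1e-04. The test on deposited counts was that of edgeR 4.0.16 (R 4.3.3): filterByExpr (minimum count 10, minimum total 15), TMM factors, quasi-likelihood test, two-sided, Benjamini-Hochberg adjustment over 14219 genes. The SE is the log2 fold change over the square root of F. CPM are TMM-scaled unless said otherwise. Shares and ratios were tested by exact permutation in scipy 1.17.1. Read identity used GENCODE M21 transcripts. The scripts were tested on simulated data. There the edgeR test recovered 33.3% of 1.5-fold, 72.4% of 2-fold and 91.8% of 4-fold changes, and 10 of 135 calls were of unchanged genes. In the simulation 81, 58 and 61 of 13935 genes were changed by these folds, while 7185 of 14219 genes were called in the real data. The recovery rates therefore need not carry over to the real fit. A gene that did not pass is not shown to be unchanged.

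The members and the 23 gene lists were chosen with earlier results of these data known. Named were the 9 members, all tested genes of the other tubulin, muscle actin and reference lists, and of other lists the 3 genes with the smallest p and the largest change the other way; other list members given were chosen after their values were seen. Alternatives were other scalings (RLE, library sizes), filters, DESeq2 1.42.0, limma 3.58.1 (voom, and on FPKM), a replicate block, removal of genes over 32-fold higher in LPS replicate 2, and leaving out each library. Replicate pairs differed by more than sampling noise (chi-square per degree of freedom of at least 11.1). The edgeR p-values set the difference between the groups against the spread between animals of a group, 3 in each. Some common reference genes are not reported here.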

Additional observations from a re-analysis of the deposited data

How the results depend on the processing

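Of the 9 members 8 or 9 were called higher and 0 lower in all 16 alternatives, and Actb was the member whose call changed. The members called at least 2-fold higher numbered 6, except 5 without LPS replicate 3 and 7 without Control replicate 1. Actb had an adjusted p of 0.0618 and 0.0832 with limma on log2(FPKM + 1) and log2(FPKM + 0.1), in a range of 0.00354 to 0.110. Its log2 fold change lay between 0.35 without Control replicate 3 and 0.60 without LPS replicate 1; Actg1 lay between 0.37 and 0.64, Tubb2a between 2.26 and 2.63 and Tubb6 between 2.12 and 2.59. The other scalings moved the median of all genes by under 0.1 on the log2 scale. With all detected tubulins in the sums, the group difference (LPS minus Control) changed sign for the shares of Tuba1b (1.64 percentage points), Tubb2b (0.527) and Tubb5 (0.520). The log2 ratio of Actb to Actg1 changed sign, and its difference was 0.0124 without LPS replicate 3 and 0.0771 without Control replicate 1, in a range from -0.102 to 0.0771 on leaving out a library. The cause of these sign changes was not tested. Genes of the related lists called higher numbered 61 to 74 and lower 24 to 33. Among single lists, those called lower ranged from 3 to 5 for nucleators, 0 to 2 for CCT and prefoldin, 3 to 6 for modifying enzymes and 0 to 1 for monomer binding. Leukocyte genes called higher numbered 7 to 12, fibroblast genes called lower 1 to 4, neuron and ciliated cell genes called lower 1 to 4, and proliferation genes called lower 0 or 1. Smooth muscle genes called higher or lower numbered 1 or 2 each, and seminal vesicle genes called higher 0 to 9.

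Deviations of same-numbered libraries from their group means had correlations of 0.0478, -0.0535 and -0.00201. Differently numbered libraries gave values such as -0.0865 (LPS replicate 3 with Control replicate 1) and 0.111 (LPS replicate 3 with Control replicate 2). With 3 libraries per group these values cannot show whether the number marks a pairing. With the replicate block 3414 genes were higher and 3331 lower, 8 members higher, and 65 and 30 genes of the related lists higher and lower.

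Shared sequence between copies limits the single values of Tuba1a, Tuba1b, Tuba1c, Tubb2a, Tubb2b and Actg1, and that of Actb if reads were short. Depth limits Tubb3, with 7 to 69 counts per library, and Tuba8, with 21 to 90.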
